A study of Mus musculus with 20 samples.

Results

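The genes followed here are 10 components and readouts of TGF-beta and BMP signalling, Smad3, Smad6, Smad7, Skil, Bambi, Thbs1, Id1, Id2, Id3 and Id4. They were taken by symbol from the deposited abundance tables, in which each symbol had 1 row among 21509 protein-coding genes, and every library was used. TGF-beta and activin ligands bind serine/threonine kinase receptors that phosphorylate Smad2 and Smad3, while BMP ligands act through Smad1, Smad5 and Smad9. In both branches the phosphorylated Smads join Smad4 and enter the nucleus. Inhibitory Smads, co-repressors and a decoy receptor are themselves induced by the pathway and restrain it, and the Id genes are direct targets of the BMP branch that can also respond to other signals. In the epididymis, TGF-beta family ligands are known for their part in epithelial differentiation and in immune tolerance towards sperm.

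Messenger RNA was measured by RNA-seq in DC2 cells, an immortalised line derived from principal cells of the mouse distal caput epididymis. Cells held under fluid flow for 3 h at a shear stress of 1 dyn/cm2 (flow, 6 libraries) were compared with cells kept without it (static, 6 libraries). In a second experiment cells carrying a mixture of siRNAs against Ift88, a gene needed to build the primary cilium (Ift88 siRNA, 4 libraries), were compared with cells carrying a scrambled siRNA (control siRNA, 4 libraries). According to the study's methods both siRNA groups were under flow, which the sample labels do not name, so the flow response itself could not be compared between cells with and without silencing. All libraries came from this single cell line, and the labels do not say whether replicates were separate cultures, so p-values measure the spread between these libraries.

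The values are TPM, transcript abundances that are corrected for transcript length and sum to 1000000 in each library, so the number of reads behind a value is unknown. A lower TPM can mean fewer cells of a kind or less RNA per cell, and these cannot be told apart. Between 15543 and 16562 genes were above 0 in the flow experiment and between 15292 and 16682 in the siRNA experiment. Of the principal-cell and epithelial markers, Krt18 (56.5 TPM with flow and 47.7 TPM without), Pax8 (83.0 and 81.7 TPM) and Pax2 (31.8 and 31.4 TPM) were present. Aqp9 (0.168 and 0.174 TPM), Epcam (0.0685 and 0.0592 TPM) and Krt8 (0.536 and 0.420 TPM) were near 0, and Lcn8 was listed at 0 in every library of the flow experiment. Among 4 macrophage markers only Cd68, a lysosomal protein not confined to macrophages, had a mean above 1 TPM, with Ptprc and Adgre1 under 0.1 TPM in every library. The summed TPM of this list ranged from 10.5 to 40.3 under flow and from 13.8 to 65.2 in static cells. In the silencing experiment Ift88 was at 0.917 to 1.71 TPM with Ift88 siRNA and at 4.08 to 4.21 TPM in the controls, a difference of -1.17 on the log2 scale (limma, adjusted p = 0.00212).

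Under flow, transcripts of Smad7 rose about 2.5-fold, and those of Thbs1, Id1, Id3 and Skil were also higher under flow in all 6 same-numbered pairs of libraries. Smad3 and Id2 showed no common direction. The comparison was made with limma on log2(TPM + 1), leaving out genes whose mean was under 1 TPM, and a gene was called if its change exceeded 1.5-fold at a Benjamini-Hochberg adjusted p-value below 0.05. By this rule 1 of the 9 members above the minimum was called, where 12 of 11388 genes were called over the whole table (0.105%), all of them higher. Flow and static libraries with the same replicate number varied together, and with that number as a block in the fit 5 of 9 members were called, against 68 of 11388 genes (0.597%). The mean was higher under flow for 8 of 9 members and 38.8% of genes, and 6 of 9 members had an unadjusted p under 0.05 without the block, as did 3.85% of genes. The median log2 fold change of the 9 members was 0.63, beside -0.03 over all genes tested. All 6 pairs were higher under flow for 7 of the 9 members, as they were for 226 of 11388 genes (1.98%). The members were chosen with earlier results of these data known, so these counts are a description and no independent test of the pathway.

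**Figure D1:**
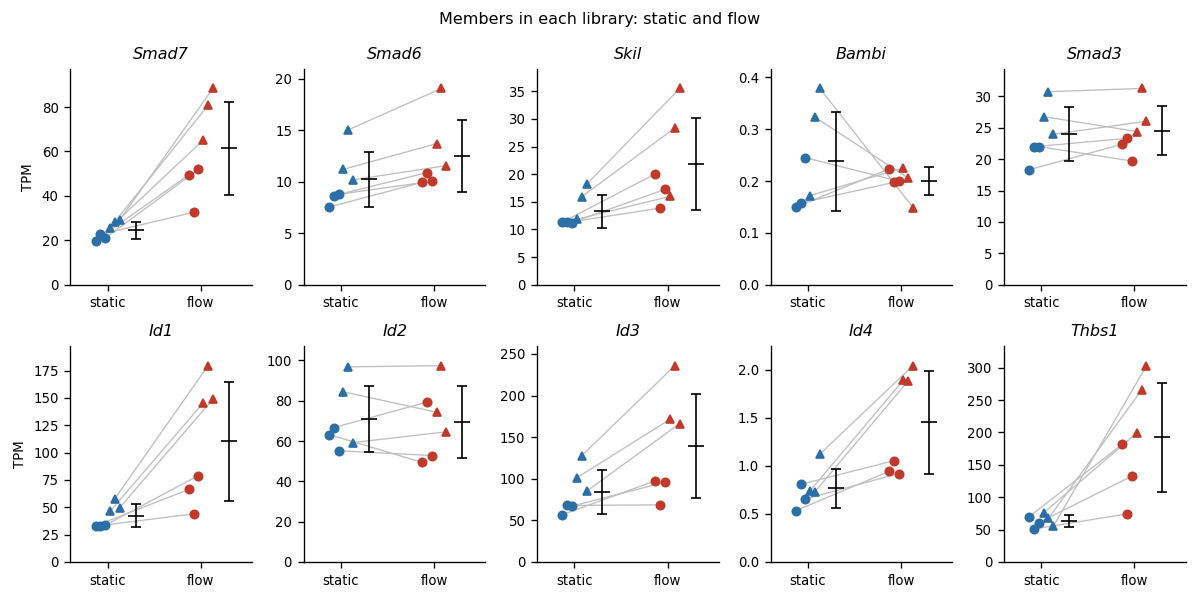
TPM of each member (y axis, linear from 0) in the 6 static and 6 flow libraries (x axis), with grey lines joining libraries of the same replicate number, circles for replicates 1 to 3, triangles for replicates 4 to 6, and bars for the mean and SD. Smad7 is the member whose groups do not overlap, from 19.9 to 29.2 TPM in static cells and from 32.6 to 88.4 TPM under flow.

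Smad7 encodes an inhibitory Smad that binds activated type I receptors and recruits ubiquitin ligases to them. Under flow its level was 49.5, 32.6, 51.9, 65.1, 80.8 and 88.4 TPM in replicates 1 to 6, and in static cells it was 19.9, 22.6, 21.0, 25.7, 28.4 and 29.2 TPM. Every flow library lay above every static library, which held for 56 of the 11388 genes tested (0.492%). The means were 61.4 ± 20.9 and 24.5 ± 3.89 TPM (SD, n = 6 each). On the log2 scale the change was 1.23 with an SE of 0.20 (limma, adjusted p = 0.0257), and the block reduced the SE to 0.12 (adjusted p = 0.00115). Without the block the call was made in 5 of the 12 fits that left out 1 library (adjusted p from 0.000604 to 0.101), and it was lost without flow replicate 4 or 5 or any of static replicates 1 to 5. With replicate 6, whose labels conflict, counted as static, the log2 fold change was 0.85 and was not called (adjusted p = 1.00).

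Smad6, the inhibitory Smad that acts mainly on the BMP branch, was not called. Its level under flow was 9.94, 10.9, 10.1, 13.7, 19.1 and 11.6 TPM. In static cells the same-numbered libraries were at 7.54, 8.65, 8.78, 11.2, 15.1 and 10.2 TPM. Each flow library was above its static partner by 0.17 to 0.36 on the log2 scale, although the groups overlapped widely, with replicate 5 high in both. The log2 fold change of 0.27 (SE 0.17) did not pass the test (limma, adjusted p = 0.9985), nor did it with the replicate block (adjusted p = 0.173).

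Skil encodes SnoN, a co-repressor that binds Smad2, Smad3 and Smad4 and holds their targets inactive. Its TPM under flow were 20.1, 13.9, 17.3, 16.0, 28.4 and 35.5, against 11.3, 11.3, 11.3, 11.9, 15.9 and 18.2 in static cells. The static libraries of replicates 1 to 4 were nearly level, and only replicates 5 and 6 of the static group reached into the flow range. Its log2 fold change of 0.63 (SE 0.21) was not called without the block (limma, adjusted p = 0.754) and was called with it (SE 0.09, adjusted p = 0.0117). The call with the block was lost without replicate 6, whose labels conflict, where the log2 fold change of 0.57 was under 1.5-fold (adjusted p = 0.0418). Bambi, a pseudoreceptor without a kinase domain, was barely expressed, from 0.149 to 0.226 TPM under flow and from 0.150 to 0.379 TPM in static cells. It fell below the minimum for the fit, and a two-sided exact permutation test did not separate its groups (p = 0.420, n = 6 each).

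Smad3, the transcription factor through which the TGF-beta branch signals, was at 22.4, 23.3, 19.7, 24.4, 31.3 and 26.1 TPM under flow. The static libraries were at 18.3, 22.0, 22.0, 26.8, 30.8 and 24.0 TPM, so the groups covered almost the same range. Flow and static cells differed by 0.04 on the log2 scale, with a 95% interval from -0.23 to 0.30.

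Thbs1 encodes thrombospondin 1, a matrix glycoprotein that can release TGF-beta from its latent complex and that is also a transcriptional target of the pathway. It had the largest fold change of the members. Its level under flow was 181.6, 74.1, 132.5, 199.1, 265.5 and 303.1 TPM in replicates 1 to 6, and in static cells it was 69.7, 51.0, 60.8, 75.7, 67.1 and 54.9 TPM. Flow replicate 2 was the single flow library inside the static range, just under static replicate 4. The means were 193 ± 84.1 and 63.2 ± 9.36 TPM (SD, n = 6 each), so the flow libraries were far more spread than the static ones. The log2 fold change was 1.47 with an SE of 0.27. It missed the threshold without the block (limma, adjusted p = 0.0565) and passed it with the block (SE 0.19, adjusted p = 0.00643).

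The Id proteins lack a basic DNA-binding region and hold other helix-loop-helix transcription factors in inactive dimers. Id1 was at 66.3, 44.0, 79.1, 145.6, 179.6 and 148.9 TPM under flow, and static cells had 33.1, 33.3, 33.6, 46.3, 58.0 and 49.7 TPM. Replicates 4 to 6 were higher than replicates 1 to 3 in both groups, and flow replicate 2 alone lay within the static range. Its log2 fold change of 1.23 (SE 0.30) was not called without the block (limma, adjusted p = 0.203) and was called with it (SE 0.14, adjusted p = 0.00374).

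Id3 was at 97.6, 68.6, 95.8, 171.4, 235.9 and 166.3 TPM under flow, while static cells had 56.8, 67.9, 67.1, 101.1, 127.7 and 84.8 TPM. In replicate 2 the flow and static libraries were almost equal, and in the other pairs flow was higher by 0.51 to 0.96 on the log2 scale. Over all pairs the log2 fold change was 0.65 (SE 0.28). It was not called without the block (limma, adjusted p = 0.9985) and was called with it (SE 0.11, adjusted p = 0.0214). Without replicate 6 the fit with the block no longer called Id3 (log2 fold change 0.59, adjusted p = 0.0736).

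Id2 had no common direction. It was at 49.4, 79.3, 52.8, 74.3, 97.4 and 64.6 TPM under flow, and static cells had 63.2, 66.6, 55.2, 84.4, 96.8 and 59.2 TPM. Flow was higher in 3 of 6 pairs, and the log2 fold change was -0.04 with a 95% interval from -0.40 to 0.33. Id4 was close to the minimum, at 0.942, 1.05, 0.920, 1.89, 1.89 and 2.04 TPM under flow, and static cells had 0.533, 0.808, 0.655, 0.743, 0.732 and 1.12 TPM. It was higher under flow in all 6 pairs, but its log2 fold change of 0.45, which the pseudocount holds down at so low a level, was not called without (limma, adjusted p = 0.842) or with the block (adjusted p = 0.195).

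**Figure D2:**
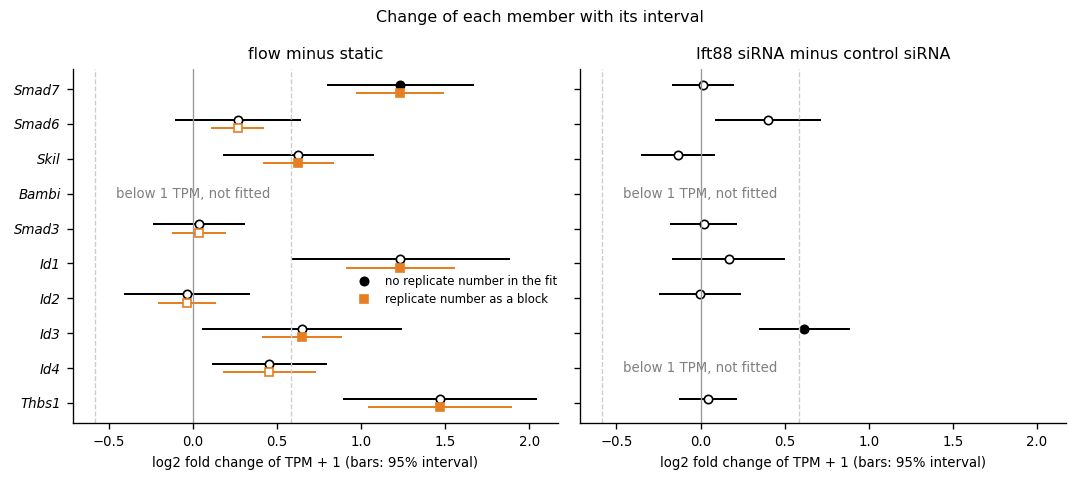
Log2 fold change of TPM + 1 (x axis) of each member (y axis), flow minus static on the left and Ift88 siRNA minus control siRNA on the right, with 95% intervals. Black circles are fits without the replicate number and orange squares fits with it as a block; filled symbols were called, and dashed lines mark 1.5-fold. Under flow the filled symbols run from 0.63 for Skil to 1.47 for Thbs1, and after silencing the filled symbol is Id3 at 0.62.

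The same pairs of libraries gave small or large changes across several members. Of the 7 members that were higher under flow in all pairs, 6 had their smallest change in replicate 2, the exception being Smad6. In that pair flow was higher by 0.51 for Smad7, 0.39 for Id1, 0.01 for Id3, 0.53 for Thbs1 and 0.28 for Skil on the log2 scale. For 4 of the 7 (Smad7, Id1, Id4 and Thbs1), every change in replicates 4 to 6 exceeded every change in replicates 1 to 3. The share of all genes with these patterns was not counted, so they cannot be read as particular to the members. Thbs1 changed by 1.00 within replicates 1 to 3 and by 1.93 within replicates 4 to 6, and Id1 by 0.86 and 1.60. Within replicates 4 to 6 Smad7, Id1 and Thbs1 were called (3 of 9 members, against 0.49% of the genes tested there). Within replicates 1 to 3 none of the 8 members tested was called by limma (0.0443% of genes were), while 6 had an unadjusted p under 0.05 (1.66% of genes), and the adjusted p-value of Smad7 was 0.170. The difference between the replicate sets was itself tested on the pair changes and was called for none of the 9 members, whereas 18 of 11388 genes over the table were (0.158%), and 3 members had an unadjusted p under 0.05, as did 4.54% of genes. The lowest unadjusted p-values were 0.00222 for Id1 (adjusted p = 0.410) and 0.00534 for Thbs1 (adjusted p = 0.636), both from limma with 3 pairs a set. The labels give no batch for either set. Leaving replicate 2 out of the fit with the block kept 5 members called, and leaving out replicate 6, whose title and column name flow while its treatment label reads static, left 3 (Smad7, Id1 and Thbs1), with Id3 and Skil lost. Over the whole table, the block fit called more genes without replicate 2 and fewer without replicate 6, with the counts given below. Both fits were added after the values had been seen.

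In static cells Id3 had the highest mean of the members, followed by Id2, Thbs1, Id1, Smad7, Smad3, Skil, Smad6, Id4 and Bambi. Under flow Thbs1 came first, followed by Id3, Id1, Id2, Smad7, Smad3, Skil, Smad6, Id4 and Bambi. Since TPM are corrected for length, these levels can be set side by side, but most neighbours overlapped. In static cells the ranges of Id3, Id2 and Thbs1 overlapped each with the next, and Smad7 was above Smad3 in 3 of 6 libraries. Gaps separated Id1 from Smad7, Smad6 from Id4 and Id4 from Bambi. Smad3 and Skil were barely apart, with 18.3 TPM as the lowest library of Smad3 and 18.2 TPM as the highest of Skil. Under flow Thbs1 exceeded Id3 in 6 of 6 libraries and Smad7 was wholly above Smad3, with 32.6 TPM as its lowest library and 31.3 TPM as the highest of Smad3. Id2 exceeded Smad7 in only 4 of 6 flow libraries.

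The proportion of Id3 to Id1 transcripts is given as a description with no test, since this pair was chosen after the values of both genes had been seen. In static cells there were 1.71 to 2.20 Id3 transcripts per Id1 transcript (mean 1.98 ± 0.219, SD, n = 6), and under flow 1.12 to 1.56 (mean 1.31 ± 0.175, SD, n = 6). The groups did not overlap and the ratio was lower under flow in 6 of 6 pairs. On the log2(TPM + 1) scale the difference was -0.58. With Ift88 siRNA the ratio ran the other way, from 1.96 to 2.46 (mean 2.19 ± 0.234, SD, n = 4) against 1.49 to 1.72 with control siRNA (mean 1.60 ± 0.102, SD, n = 4). That difference was 0.45 on the log2(TPM + 1) scale. How many other gene pairs separate in this way was not counted. The ratio restates the changes of both genes. Under flow both means were higher, with log2 fold changes of 1.23 for Id1 and 0.65 for Id3. After silencing these were 0.17 for Id1, which was not called, and 0.62 for Id3.

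**Figure D3:**
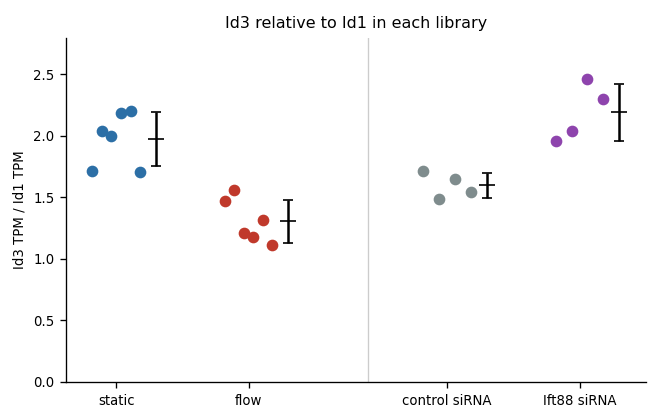
Ratio of Id3 TPM to Id1 TPM (y axis, linear from 0) in each library of the 4 groups (x axis), with bars for the mean and SD. The 6 flow libraries lie between 1.12 and 1.56, below all static libraries, and the 4 Ift88 siRNA libraries lie between 1.96 and 2.46, above all control siRNA libraries.

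For Smad7, Id1 and Thbs1 the genes with the most similar changes were sought by the root mean square difference of the 6 pair changes, over 9712 genes whose mean was 5 TPM or more. The nearest gene to Smad7 was Id1, at a distance of 0.19 on the log2 scale where the changes of Smad7 themselves had a root mean square of 1.28. Bdnf, a neurotrophin (distance 0.21), and Dusp6, a phosphatase of ERK (0.22), came next. The genes nearest to Id1 were Smad7 (0.19), Dusp6 (0.23) and Plk3, a stress-responsive kinase (0.26). Thbs1 had other neighbours, namely Cited2, a CBP/p300-binding regulator (0.15), Spry2, an inhibitor of receptor tyrosine kinase signalling (0.18), and Hbegf, a ligand of the EGF receptor (0.21). Cited2 was at 643 ± 277 TPM under flow, and static cells had 203 ± 42.9 TPM (SD, n = 6 each), the highest level among these neighbours.

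Around the members, a list of 115 further genes of the pathway was sorted into ligands, receptors, extracellular regulators, intracellular components and targets. Of these, 77 reached a mean of 1 TPM, and their median log2 fold change under flow was 0.04. Without the replicate block 3 of 77 were called, all targets and all higher, and with the block 9 of 77, all higher, beside the shares of 0.105% and 0.597% over the table. By class, the block fit called 2 of 11 ligands, 0 of 9 receptors, 0 of 14 extracellular regulators, 1 of 22 intracellular components and 6 of 21 targets. At an unadjusted p under 0.05, limma with the block gave 1 receptor and 2 extracellular regulators, and 11.1% of all genes. This list too was drawn up with earlier results of these data known, so its counts are a description.

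The targets called without the block included Ccn2 and Ccn1. Ccn2 (connective tissue growth factor) averaged 479 ± 188 TPM with flow and 61.1 ± 20.1 TPM without it (SD, n = 6 each, as for the genes that follow, log2 fold change 2.91, SE 0.26, limma, adjusted p = 0.000309). Ccn1, a matricellular protein of the same family, was at 1644 ± 726 and 384.7 ± 25.5 TPM (log2 fold change 1.95, adjusted p = 0.0107). The groups did not overlap for either gene, and both are also known as targets of YAP and TEAD factors.

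With the block, 3 more targets were called. Junb, an AP-1 subunit, had a log2 fold change of 2.11 (limma, adjusted p = 0.0792 without and 0.00643 with the block). Klf10, a TGF-beta-inducible zinc finger factor, had a log2 fold change of 1.07 (adjusted p = 0.318 and 0.0344), and Hes1, a repressor better known from Notch signalling, one of 0.89 (adjusted p = 0.0952 and 0.00135). The targets with the lowest values were Atoh8 (-0.29) and Tgm2 (-0.15), neither called. The intracellular component called with the block was Tgif1, a homeodomain co-repressor of Smads, with means of 88.2 ± 33.2 TPM for flow and 46.7 ± 3.27 TPM for static cells (log2 fold change 0.83, adjusted p = 0.0218 with and 0.140 without the block). Pmepa1, which sequesters Smad2 and Smad3, followed at 0.30, and the lowest were Smad9 (-0.15) and Smad4 (-0.05), none of them called.

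Of the ligands, Gdf15, a distant family member induced by cell stress, ranged from 104 to 685 TPM under flow and from 74.6 to 258 TPM in static cells. Its log2 fold change of 1.04 had an SE of 0.46 without the block (limma, adjusted p = 0.9985) and 0.10 with it (adjusted p = 0.00135). Inhba, the subunit of activin A, was at 17.7 ± 5.78 and 9.77 ± 1.67 TPM (log2 fold change 0.74, adjusted p = 0.389 without and 0.0291 with the block). The lowest ligands were Inha (-0.21) and Tgfb3 (-0.18), not called. Receptors lay between -0.32 for Acvr1b and 0.08 for Tgfbr2, with Eng at -0.17 and Acvr2a at 0.06. Extracellular regulators ran from -0.22 for Dcn and -0.21 for Chrd to 0.27 for Nog and 0.57 for Fst, the last 2 being antagonists of BMPs and of activin.

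**Figure D4:**
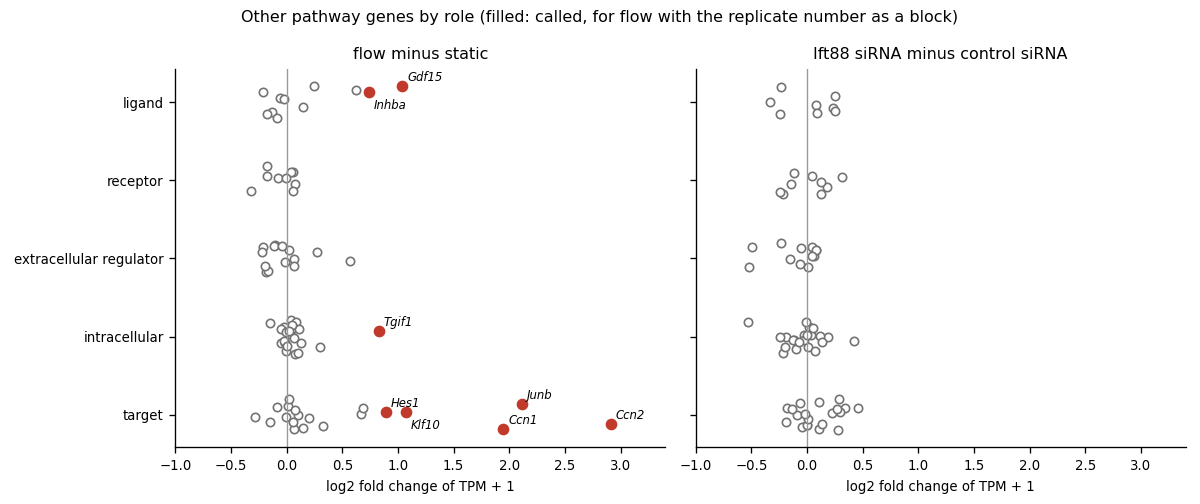
Log2 fold change of TPM + 1 (x axis) of the other pathway genes by role (y axis), flow minus static on the left and Ift88 siRNA minus control siRNA on the right, 1 point a gene, with 1 called gene left out of both panels. Filled points were called, for flow with the replicate block: 9 of 77 genes under flow, of which 8 are drawn, led by Ccn2 at 2.91, and 0 of 72 after silencing.

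After silencing of Ift88, Id3 was the single member that passed the test, and the siRNA groups overlapped for Smad7 and Thbs1. Of the 8 members above the minimum 1 was called, against 17 of 11209 genes called higher (0.152%) and 8 called lower (0.0714%). Means were higher after silencing for 6 of 8 members and for 55.0% of genes. The median log2 fold change of the 8 members was 0.03, beside 0.02 over all genes. The siRNA libraries belong to a separate experiment, so levels were compared only within it.

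Id3 was at 269, 243, 276.3 and 238.4 TPM with Ift88 siRNA and at 147.6, 188.3, 131.8 and 210.4 TPM with control siRNA. All silenced libraries lay above all controls, which was so for 649 of 11209 genes (5.79%). The means were 257 ± 18.8 and 169.5 ± 36.2 TPM (SD, n = 4 each), and the log2 fold change was 0.62 (SE 0.12, limma, adjusted p = 0.0480). The call stood at the edge of the threshold, being made in 2 of the 8 fits that left out 1 library, those without control siRNA replicate 2 and control siRNA replicate 4, with adjusted p-values from 0.0126 to 0.151. It was lost with median-of-ratios scaling (adjusted p = 0.0673). The 4 Ift88 siRNA libraries also had more genes above 0 (15713 to 16682) than the controls (15292 to 15382), and the part of this difference in the result was not tested. The 3 smooth muscle markers, Acta2, Des and Myh11, summed to 2.06 to 4.82 TPM with Ift88 siRNA and to 1.48 to 2.33 TPM in the controls. Acta2 averaged 1.53 and 0.765 TPM and was not called (limma, adjusted p = 0.421), while Myh11 was at most 0.101 TPM in any library. Their part in the change of Id3 was not tested.

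**Figure D5:**
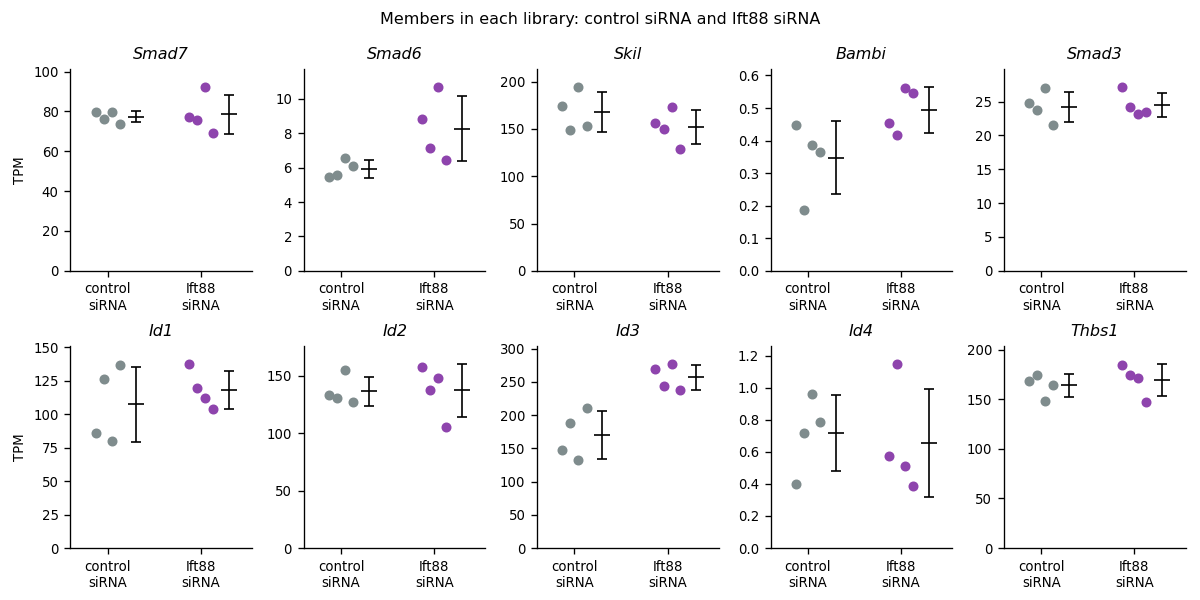
TPM of each member (y axis, linear from 0) in the 4 control siRNA and 4 Ift88 siRNA libraries (x axis), with bars for the mean and SD. Id3 is at 131.8 to 210.4 TPM in controls and at 238.4 to 276.3 TPM after silencing, while Smad7 and Thbs1 overlap between the groups.

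Id1 was at 137.1, 119.3, 112.1 and 103.5 TPM with Ift88 siRNA and 86.0, 126.3, 80.0 and 136.4 TPM with control siRNA, with a log2 fold change of 0.17 (95% interval -0.16 to 0.50). Smad6 was at 8.81, 7.14, 10.7 and 6.47 TPM with Ift88 siRNA against 5.47, 5.56, 6.57 and 6.12 TPM with control siRNA. Its log2 fold change of 0.40 (SE 0.14) did not pass (limma, adjusted p = 0.240), and 1 silenced library, replicate 4, lay inside the control range.

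Smad7 was at 77.1, 75.8, 92.2 and 69.2 TPM with Ift88 siRNA and 79.7, 76.2, 79.7 and 73.8 TPM with control siRNA. The log2 fold change was 0.02 with a 95% interval from -0.16 to 0.19, which excludes a change of 1.5-fold in either direction. Thbs1 was at 184.3, 174.0, 171.4 and 146.7 TPM against 168.2, 174.8, 148.0 and 164.2 TPM, with an interval from -0.12 to 0.21. Skil was at 156.7, 150.0, 173.3 and 129.3 TPM against 174.5, 148.6, 194.2 and 152.7 TPM, with an interval from -0.35 to 0.08. The groups overlapped for all 3 genes.

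Smad3 ranged from 23.2 to 27.1 TPM with Ift88 siRNA and from 21.5 to 26.9 TPM with control siRNA (log2 fold change 0.02, 95% interval -0.18 to 0.21). Id2 ranged from 105.5 to 157.7 TPM and from 127.6 to 155.2 TPM (log2 fold change -0.0042, interval -0.24 to 0.23). Id4 was below the minimum, at 0.388 to 1.15 TPM and 0.398 to 0.962 TPM, and an exact permutation test did not separate the groups (p = 0.686, n = 4 each). Bambi was at 0.454, 0.417, 0.561 and 0.545 TPM against 0.448, 0.188, 0.387 and 0.365 TPM. Its groups overlapped and were not separated (exact permutation test, p = 0.0571, 0.171 after adjustment over 3 tests). In control siRNA libraries the means ran from Id3 through Skil, Thbs1, Id2 and Id1 to Smad7, where Id3 exceeded Skil in 2 of 4 libraries. With Ift88 siRNA the range of Id3 was clear of the next gene, Thbs1.

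None of the 72 pathway genes above the minimum was called by limma after silencing, where 25 of 11209 genes were (0.223%). Of the 72, 15 had an unadjusted p under 0.05, where 13.9% of all genes did. Tgif2, a homeodomain co-repressor related to Tgif1, came closest in p-value, at 28.3 ± 2.31 and 20.8 ± 1.19 TPM (SD, n = 4 each). Its log2 fold change of 0.43 (limma, adjusted p = 0.0485) was under 1.5-fold. Among the intracellular components, Smad9 had the next highest log2 fold change, at 0.19. The lowest intracellular components were Pmepa1 (-0.53, adjusted p = 0.135) and Ep300 (-0.24).

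Extracellular regulators had their lowest values in the integrin subunit Itgb6 (-0.53, limma, adjusted p = 0.0811) and the latent TGF-beta binding protein Ltbp1 (-0.50, adjusted p = 0.0852), both of which take part in activating latent TGF-beta. The groups did not overlap for either gene. Of the 72 pathway genes tested, 3 lay wholly below the controls and 6 wholly above them. Over all genes 5.79% lay wholly above the controls, and the share wholly below was not counted. The highest of this class were Chrd (0.08) and Twsg1 (0.08). Ligands ran from Tgfb1 (-0.33) and Inhba (-0.24) to Gdf15 and Tgfb3 (0.25 each). Receptors ran from Eng (-0.25) and Acvr1 (-0.22) to Tgfbr1 (0.18) and Tgfbr3 (0.32), and targets from Col4a2 (-0.19) and Msx1 (-0.18) to Snai1 (0.34) and Atoh8 (0.45). None of these passed the test.

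Promoter sequences from RefSeq (GRCm38.p6, from 250 bases before to 50 after each start) were matched for 5 members, Smad3, Smad6, Id2, Id3 and Id4. They were searched on both strands for the letters of 5 motifs. The palindromic Smad-binding sequence GTCTAGAC was found across the start site of Smad6, from base -4 to base 4, and in 0.213% of 32851 promoters. The GC-rich sequence GGCGCC, described in BMP-responsive genes, was found in Id2 and Id4 and in 11.9% of promoters. The TEAD sequence GGAATG was found in Id3 and Id4, in the reverse orientation, and in 14.7% of promoters. None of the 5 held the AP-1 sequence TGANTCA (7.81% of promoters) or the cyclic AMP response element TGACGTCA (1.79%). A match of letters is a description and not a site of binding. Starts differ between annotations: those of RefSeq lie 1048 bases (Id2) and 325 bases (Id3) inside the gene spans of GENCODE M21, which puts the stretch of Id2 in an intron and that of Id3 in a noncoding part of an exon, while both stretches of Id4 are outside its span. The 30 bases around each match are shown because these are the pathway and TEAD letters that the members with a promoter entry hold, with the motif in capitals, 5′ to 3′ along the strand of the gene.
Smad6, Smad-binding palindrome, chr9:64022045-64022074, minus strand: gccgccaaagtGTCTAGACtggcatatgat
Id2, GC element, chr12:25096306-25096335, minus strand: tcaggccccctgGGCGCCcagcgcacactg
Id4, GC element, chr13:48260956-48260985, plus strand: ctcgggttgcccGGCGCCccgccctcgcca
Id3, TEAD sequence, chr4:136143607-136143636, plus strand: tcagcgcttcctCATTCCtcgcatccgagg
Id4, TEAD sequence, chr13:48260878-48260907, plus strand: tggcccgagcgtCATTCCccgaggtggcac

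In GENCODE M21 on GRCm38, an older build than the annotation used by the authors, 8 of the 10 members lie at chr2:152736251-152737410 (Id1, plus strand), chr12:25093799-25097140 (Id2, minus), chr4:136143497-136145755 (Id3, plus), chr13:48261228-48266026 (Id4, plus), chr2:118111876-118127133 (Thbs1, plus), chr3:31095058-31122577 (Skil, plus), chr9:63646767-63757994 (Smad3, minus) and chr9:63953076-64022059 (Smad6, minus). The positions of Smad7 and Bambi are not given here. Smad3 and Smad6 are thus near each other on chromosome 9, transcribed from the same strand.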

How the data were processed

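RNA-seq of mouse DC2 cells covered 20 libraries, 6 flow and 6 static, and 4 Ift88 siRNA and 4 control siRNA. Groups followed the labels. Flow replicate 6 has flow in its title and column name and static as its treatment, and was treated as a flow library. The authors deposited TPM, 1 table per experiment, for protein-coding genes, of which 78 have no symbol. According to the study's methods, the authors made poly(A)-selected directional libraries, trimmed reads with Trimmomatic, quantified transcripts of the Ensembl mouse annotation with kallisto, summed them to genes with tximport and ran DESeq2. The submitters' processing notes name fastp 0.20.0, FastQC 0.11.8, MultiQC 1.8 and kallisto 0.46.2. TPM keep no read totals, so no count test, depth per library or counting error could be given. The study's methods give only a mean read number per sample.

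From the deposited TPM, log2(TPM + 1) was fitted with limma 3.58.1 in R 4.3.3 (eBayes with trend), leaving out genes with a mean under 1 TPM. Fold changes on this scale understate those of low genes. The fit without the block and that of the difference between replicate sets were checked on simulated libraries with independent noise. The fit with the block was not checked in this way. Single values used two-sided exact permutation tests. Tables and plots were made in Python 3.11.15 with pandas 2.3.3, numpy 2.4.6 and matplotlib 3.10.9. In the flow experiment, flow and static libraries of 1 number deviated together from their means (r from 0.294 to 0.662 over genes in 6 of 6 pairs, with 5 of 6 flow libraries closest to their own number), so the numbers were taken to pair them. This rests on the data, since no pairing is named in the methods, and unblocked fits are given first.

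The members and gene lists were chosen with earlier results of these data known. Named genes are the members, pathway genes called in either comparison or among the 2 with the largest change in each direction in each class, the 3 genes nearest to Smad7, Id1 and Thbs1, Ift88, and the marker genes of the cell-type check. Lists of markers of other cells reached a summed level of at most 0.281 TPM (clear cells), 0.483 TPM (basal cells), 1.42 TPM (endothelium), 4.56 TPM (smooth muscle) and 5.35 TPM (fibroblasts) in any library of the flow experiment. In the siRNA experiment these were at most 0.615, 0.438, 1.74, 4.82 and 2.45 TPM. The macrophage list summed there to 87.7 to 97.0 TPM with Ift88 siRNA and to 90.7 to 99.9 TPM with control siRNA. Its marker Cd68 averaged 93.1 and 94.5 TPM in these groups. Alternatives covered the pseudocount, the filter, scaling, library weights, the block, each library left out, the fold threshold, the label of replicate 6 and the replicate sets. The values of 2 genes are not reported here, although they stay in the counts.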

Additional observations from a re-analysis of the deposited data

Results flagged for a closer look

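Bambi in flow replicate 6 was at 0.149 TPM, while the other flow libraries were at 0.197 to 0.226 TPM. Its gap to the nearest of them was 0.633 of the range of the 6 libraries. This was the only value flagged among 40 groups examined, and chance flags about 1 in 20 groups. At this level a value rests on few reads, and the depth of each library is unknown.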

How the results depend on the processing

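Without a filter on low TPM, the flow comparison called 2 genes in place of 12, 0 members in place of 1 and 1 pathway gene in place of 3. Median-of-ratios scaling gave 28, 2 and 5 calls (genes, members, pathway genes), library weights 86, 3 and 9, and the replicate block 68, 5 and 9. Fits within replicates 1 to 3 gave 5, 0 and 1 calls and those within replicates 4 to 6 gave 56, 3 and 4. Counting flow replicate 6 as static gave 0, 0 and 0 (limma). With the replicate block, leaving out replicate 2 gave 193, 5 and 13 calls and leaving out replicate 6 gave 41, 3 and 6. Leaving out each library in turn gave 5 (without flow replicate 4) to 87 genes (without flow replicate 2), 0 to 3 members and 2 to 9 pathway genes. Smad7 lost its call without flow replicates 4 or 5 or any of static replicates 1 to 5, without the filter (adjusted p = 0.119), within replicates 1 to 3 (0.170) and with replicate 6 as static (1.00), and Thbs1 passed with scaling (0.0345), weights (0.000447) and the block (0.00643).

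After silencing, calls went from 25 genes to 6 without the filter, 48 with library weights, 44 with the replicate block, 71 with no fold threshold and 11 to 23 with each library left out. Calls among members went from 1 to 0 without the filter, with median-of-ratios scaling and with library weights, and to 0 to 1 with each library left out. Calls among pathway genes went from 0 to 1 (Tgif2) with no fold threshold. The siRNA libraries were not taken as paired: correlations of same-numbered libraries were 0.00276 to 0.259, 2 of 4 were closest to their own number, and the block kept Id3 called (adjusted p = 0.0379). For the difference between replicate sets, calls went from 18 genes to 0 without the filter, 8 with scaling and 0 to 49 with each replicate left out.

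Signs turned only in changes near 0 that were never called. Under flow these were Smad3 (-0.0031 with replicate 6 as static, -0.035 to 0.11 with each library left out) and Id2 (-0.14 to 0.059). After silencing they were Smad3 (-0.0032 with scaling, -0.034 to 0.070 with each library left out), Smad7 (-0.0074, -0.063 to 0.073), Id2 (0.064 with weights, -0.076 to 0.12) and Thbs1 (-0.0041 to 0.11). In the difference between replicate sets they were Smad3 (0.0021 with scaling, -0.17 to 0.038 with each replicate left out), Smad6 (0.036, -0.077 to 0.017) and Id2 (-0.11 to 0.19). The causes were not tested. The unknown depth of each library limits Bambi and Id4 most, which lie near or under 1 TPM.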
